A study of Homo sapiens with 8 samples.

Results

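The end of the long arm of human chromosome 13, band 13q34, carries ATP11A among other genes, and the RNA made there was examined for enrichment by an antibody against RBPMS. The members were all listed eCLIP peaks on chromosome 13 that start at or beyond position 110000000 (hg19), on either strand. There were 1114 of them among 194003 listed peaks in all, 195, 541, 171 and 207 in libraries 1 to 4. Within them, the plus-strand window of ATP11A (RefSeq gene ID 23250), chr13:113344000-113542000, held 150 peaks, and the rest of the 13q34 end held 964. The stretch and the window were chosen by measured values, the log2 folds over input and −log10 p of the peaks in these same lists. Folds and shares of enriched peaks are therefore given as a description, with no test.

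The 4 eCLIP libraries came from wild-type HUES6 cells, an established human embryonic stem cell line, with no treatment other than the control one that all samples share. Cells in dishes received a UV dose of 400 mJ/cm2, and an RBPMS antibody pulled down the RNA crosslinked to the protein. The 4 input libraries, made from the same kind of lysate without antibody, are held only in the deposited comparison of each eCLIP library with input. HUES6 is a single line, nothing says that the libraries came from separate cultures, and the lists carry no gene names by which the cell type could be checked.

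RBPMS is an RNA-binding protein with a single RNA recognition motif that binds RNA as a dimer and prefers closely spaced CAC motifs. It is known as a regulator of alternative splicing in smooth muscle. In eCLIP, UV light joins a protein to the RNA it touches, and the immunoprecipitated fragments are read and set against fragments of an input that did not pass through the antibody. ATP11A is a P-type ATPase of the plasma membrane, a flippase that moves phosphatidylserine and phosphatidylethanolamine from the outer to the inner leaflet. In the order of protein-coding genes of the RefSeq table of GRCh38.p14, ATP11A lies between TUBGCP3, a component of the complex that nucleates microtubules, and MCF2L. No coordinates of that build were used, peaks outside the window are named by position, and the sequences under the peaks and their place in exons, introns or untranslated parts were not analysed here.

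Each listed peak has 2 deposited values, both computed by the authors: the log2 fold of immunoprecipitation over input, and the −log10 p of that comparison. A peak counts as enriched here where the log2 fold is at least 3, which is 8-fold over input, and −log10 p is at least 3. The p values stop at a ceiling of 15.66 where the authors' p matched Fisher's exact test, and at 400 elsewhere, so p values at these stops have no order. Whole read numbers were worked out from the pairs of values below those stops. The median was 4, 4, 3 and 4 immunoprecipitation reads per peak in libraries 1 to 4. The reads of libraries 3 and 4 over 366 shared peaks differed no more than sampling noise allows, with a chi-square over degrees of freedom of 1.05 (p = 0.236), and these libraries were counted as 1 sample. The other 5 pairs of libraries had ratios of 6.60 to 11.9. A mean ± SD is therefore over n = 3 samples, and the SD may be technical.

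On the 13q34 end, 95 of 195 listed peaks were enriched in library 1, where 15.9% of the whole list was. In library 2 the count was 126 of 541, against 5.38% of its whole list. Libraries 3 and 4 had 74 of 171 and 94 of 207, against 12.6% and 12.7% of their whole lists. As shares these are 48.7%, 23.3%, 43.3% and 45.4%. The rest of chromosome 13 had 13.7%, 4.64%, 10.5% and 13.6% enriched, below the 13q34 end as a whole in every library. The 13q34 end exceeded the rest of the genome by 27.7 ± 8.39 percentage points (SD, n = 3), and by 18.9 ± 10.4 points with only peaks kept that had at least 20 immunoprecipitation reads or a p at a stop or above the ceiling.

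Peaks inside the ATP11A window were enriched in 15 of 24 cases in library 1, 35 of 58 in library 2, 21 of 29 in library 3 and 26 of 39 in library 4. The shares were 62.5%, 60.3%, 72.4% and 66.7% in the window, against 46.8%, 18.8%, 37.3% and 40.5% in the rest of the 13q34 end. The window was higher in 4 of 4 libraries, by 29.3 ± 12.9 points (SD, n = 3). Window peaks also rested on more reads. Among peaks with worked-out reads the median was 7.5, 15, 10 and 8.5 immunoprecipitation reads in the window. In the rest it was 6, 5, 4 and 6. Reads were worked out for 66.7%, 55.2%, 65.5% and 43.2% of the window's peaks above input. In the rest the part was 93.6%, 89.8%, 83.6% and 73.8%, so the medians leave out more of the window. With only deep peaks kept, by the same limit as above, the window exceeded the rest by 4.69 ± 3.93 points. Deep peaks were enriched in 13 of 13, 33 of 37, 17 of 17 and 23 of 23 cases in the window. In the rest 98.1%, 80.0%, 97.7% and 96.4% of them were. The limit keeps every peak at or above the p ceiling, so it leans on the p values that define enrichment. With the rest at 96.4% to 98.1% in libraries 1, 3 and 4, little room for a lead was left there. Without the last 10 kb of the window, its lead over the rest was 8.58 ± 7.23 points (SD, n = 3), and library 1 had almost no lead.

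**Figure D1:**
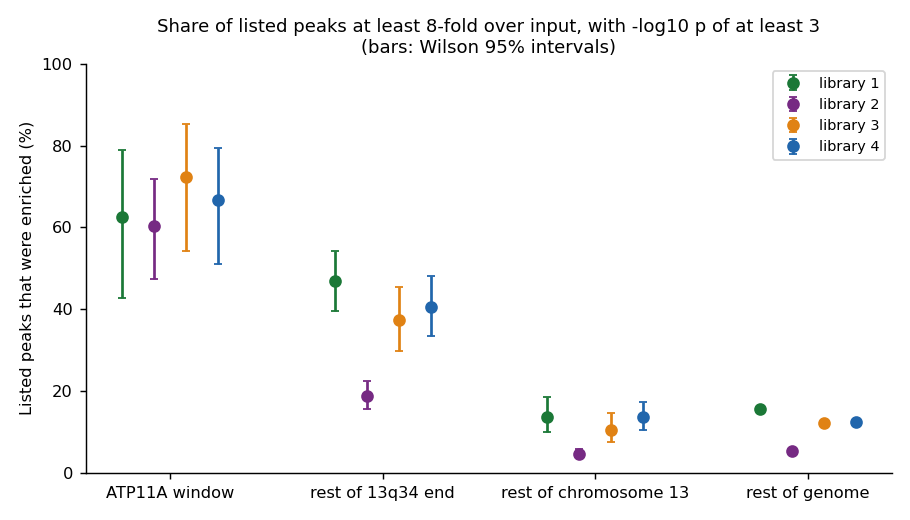
Share of listed peaks that were enriched (y axis, percent) in the ATP11A window, the rest of the 13q34 end, the rest of chromosome 13 and the rest of the genome, with 1 point per library and bars for Wilson 95% intervals, which cover counting error only. The window lies between 60.3% and 72.4%, the rest of the 13q34 end between 18.8% and 46.8%, and the rest of chromosome 13 between 4.64% and 13.7%.

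The folds of the peaks themselves were also higher in the window. The median log2 fold of all listed peaks was 3.91, 3.92, 5.09 and 5.66 in the window in libraries 1 to 4, against 3.67, 1.65, 3.09 and 2.86 in the rest of the 13q34 end. Of the enriched peaks it was 4.97, 6.51, 5.71 and 6.53 in the window, against 4.52, 4.76, 4.99 and 5.38 in the rest. Peaks with more immunoprecipitated than input signal stood at or above the p ceiling in 41.7%, 44.8%, 37.9% and 54.1% of cases in the window, against 23.4%, 12.5%, 15.7% and 26.2% in the rest. Peak width took no part in the choice of the window. The median width of enriched peaks was 92, 42, 55 and 52 bases in the window, against 75.5, 86, 90 and 82.5 bases in the rest. Library 1 went one way and the others the other way, and the difference of -20.1 ± 32.2 bases (SD, n = 3) had p = 0.5 in an exact permutation test, two-sided, by flips of sign over the 3 samples, which cannot go below 0.25. Over all listed peaks the difference was -2.58 bases, and it was -38.4 bases without library 1 and -8.13 bases without library 2.

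The signal in the window lay on one strand. All 150 peaks of the window were on the plus strand by the rule, and on the minus strand over the same 198 kb each of the 4 lists held 0 peaks. In the rest of the 13q34 end, 46.8%, 52.2%, 47.2% and 49.4% of the listed peaks were on the plus strand. That share pools groups of neighbouring peaks from both strands. Among the rest's groups with an enriched peak, chr13:114533526-114541825 (minus) alone overlapped a listed group of the other strand. Signal on one strand was thus not particular to ATP11A.

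Enriched peaks filled little of the ATP11A window. Cut into 10 slices of 19.8 kb, the window held its 97 enriched peaks in 3 slices, and the other 7 had none. The second slice from the start held 35 enriched peaks of 65 listed, the eighth 3 of 14, and the last 59 of 61. The fourth and the ninth slices had no listed peak in any library. The reproducible signal thus stood in an early stretch, from 24.3 kb after the start of the window, and in a short stretch at its end. Before 24.3 kb there was 1 enriched peak, and between the stretches there were 3 of 23 listed.

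**Figure D2:**
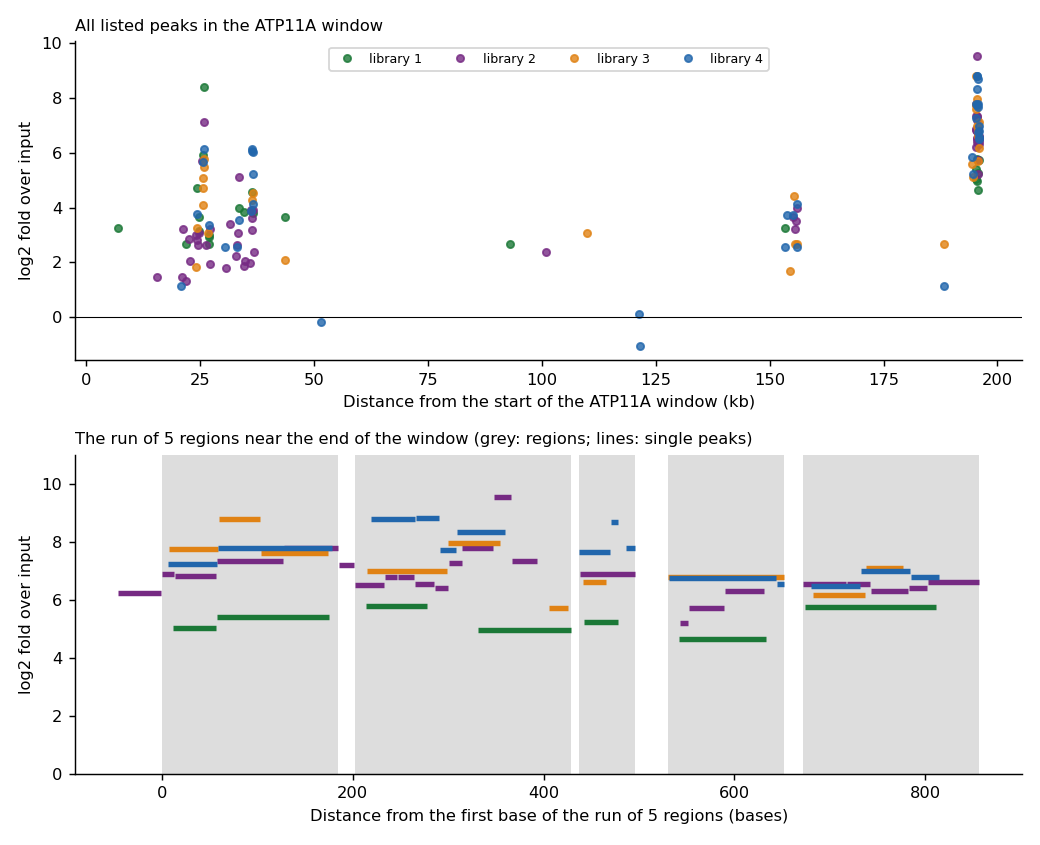
Upper plot: log2 fold over input (y axis) of every listed peak in the ATP11A window by its distance from the window's start (x axis, kb), with 1 colour per library. Lower plot: the run of 5 regions near the end of the window, with distance in bases from the run's first base (x axis), a line for each peak from its start to its end at its log2 fold, and grey for the merged regions. The highest peak of library 1 lies below the highest peak of every other library in each of the 5 regions.

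Regions were made by merging enriched peaks of any library that overlapped by 1 base or more, strand by strand. Of 100 such regions on the 13q34 end, 31 were enriched in at least 3 of 4 libraries and are called reproducible below, where 22.7% of the 7472 regions of the whole genome were. In all 4 libraries 29 of the 100 were enriched, where 12.6% were over the whole genome. Libraries 3 and 4 count singly in these numbers, so 3 libraries can mean 2 samples. This was so for the 2 reproducible regions that were not enriched in all 4. The ATP11A window had 8 reproducible regions of 22, 7 of them in all 4 libraries, and the rest had 23 of 78, 22 of them in all 4. Merging needed an overlap, so neighbours that only touch stayed apart: asking for 20 shared bases gave 42 reproducible regions in place of 31. The 31 regions lay on the plus strand in 16 cases and on the minus strand in 15. For each library, a region takes the log2 fold of its highest enriched peak, so a region cut into many peaks can gain.

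Of the 8 reproducible ATP11A regions, 5 stood in a run at the end of the window, chr13:113539235-113540092, plus strand. The run spanned 858 bases and ended 1908 bases before the end of the window. Its regions were 7 to 33 bases apart, and all 5 were enriched in all 4 libraries. In library 2, an enriched peak at chr13:113539421-113539436 (log2 fold 7.19) filled the first gap, of 16 bases. Another at chr13:113539189-113539234 (6.23) touched the start of the run. Both stayed apart because merging needed an overlap, so the split into 5 is partly a product of merging. Of the 1000 runs of reproducible regions in the genome, joined where regions of a strand lie at most 5 kb apart, 39 held as many. That number depends on where merging split the signal and is not a measure of how rare such binding is. For example, chr13:114536455-114537148, with 694 bases and 26 enriched peaks, counts as a run of 1. The mean log2 fold over the 5 regions was 6.81 ± 0.76 (SD over regions).

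The opening region of the run, chr13:113539235-113539420, had log2 folds of 5.42, 7.79, 8.79 and 7.80 in libraries 1 to 4, with a mean of 7.17 ± 1.54 (SD, n = 3). The next, chr13:113539437-113539664, had 5.79, 9.54, 7.96 and 8.82, with a mean of 7.91 ± 1.92. By this mean over samples that region ranked 4 among the 940 regions of the genome enriched in all 4 libraries, and the opening region ranked 22. The 9.54 of library 2 came from a single peak of 19 bases. By the median of a region's enriched peaks, the mean was 6.65 in the region with rank 4 and 6.66 in the opening region. The narrowest, chr13:113539672-113539731, had 5.26, 6.91, 6.62 and 8.68 in 60 bases, a mean of 6.61 ± 1.23 and rank 52. The one after it, chr13:113539765-113539887, had 4.64, 6.32, 6.81 and 6.76, a mean of 5.91 ± 1.13 and rank 167. The last, chr13:113539907-113540092, had 5.75, 6.62, 7.12 and 6.997, a mean of 6.48 ± 0.66 and rank 66. Library 1 gave the lowest value in 5 of these 5 regions, and the highest value came from library 2 in 1 region, library 3 in 3 and library 4 in 1. Sorted by mean, neighbouring regions of the run differed by less than the SD of either, but that SD is between libraries. Compared within libraries, the last region stood above the one before it in all 4. The other neighbouring pairs by mean changed order between libraries, so their order is not firm.

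These folds rested on many immunoprecipitation reads. For peaks at a p stop, the smallest whole read numbers that give the deposited fold and could belong to that stop were found. At 15.66 the input had to be below 5 reads. At 400 it had to be at least 5, with a chi-square −log10 p above 88.1, the highest listed below 400. The numbers are lower bounds under this reading of the stops, which was not tested. In the region with rank 4, the highest peak had at least 191 immunoprecipitation reads over 11 input reads in library 1. It had at least 715 over 1 in library 2, 117 over 1 in library 3 and 311 over 1 in library 4. In the region at chr13:113539765-113539887 the bounds were 807 over 103, 1451 over 19, 527 over 10 and 970 over 13. The input side was thus thin for the highest folds of the run, and better filled in that last one, where the log2 folds were between 4.64 and 6.81. Only input numbers of at least 1 were tried, so an input of 0 that was listed as 1 cannot be told apart from a true 1.

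The library with the most input reads behind the run had the lowest folds there. Among the enriched peaks of the last 10 kb, at least 5 input reads stood behind 7 of 7 peaks in library 1 and 20 of 24 in library 2, against 2 of 12 in library 3 and 3 of 16 in library 4. The median lower bound was 16, 7, 2 and 1 input reads. These input numbers rest on the reading of the p stops given above. The depth of input over immunoprecipitation was 3.18, 1.04, 2.12 and 1.46 in libraries 1 to 4. The part of input depth in the lower folds of library 1 was not tested. Library 1 was also lowest in 13 of the 22 regions in all 4 libraries outside the window, and in 38.1% of the 940 regions of the genome.

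The early stretch of ATP11A held the other 3 reproducible regions, and there library 1 was not low. The region chr13:113369560-113369967, 25.6 kb after the start of the window, had log2 folds of 8.41, 7.12, 5.79 and 6.16 in libraries 1 to 4 (7.17 ± 1.22, SD, n = 3; rank 21). Library 1 was the highest there, with at least 107 immunoprecipitation reads over 1 input read. Its mean was close to that of the opening region of the run, well within the SD of both. A further region at chr13:113380392-113380811 had 4.57, 3.93, 4.54 and 6.13 (4.61 ± 0.70; rank 665), and library 4 alone stood above 5. Here the highest peaks of libraries 1, 2 and 3 had 45 reads over 6, 73 over 5 and 33 over 3. The region chr13:113368293-113368470 was enriched in libraries 1, 3 and 4, at 4.73, 3.26 and 3.77. Library 2 listed a peak in it with a log2 fold of 2.80 and −log10 p of 6.26, under the fold threshold.

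The other 14 enriched regions of the window were seen in 1 or 2 libraries. A pair in the last 10 kb, chr13:113538497-113538535 and chr13:113538643-113538697, was enriched in libraries 3 and 4 only. The log2 folds there were 5.61 and 5.86 in the pair's first region and 5.13 and 5.24 in its second, on at least 23 immunoprecipitation reads. Libraries 1 and 2 listed no peak at either place. Description codes in the labels put libraries 3 and 4 in 1 set and libraries 1 and 2 in another, and since libraries 3 and 4 count as 1 sample, set and sample cannot be told apart. At chr13:113377493-113377573 library 2 had a log2 fold of 5.11 on 33 reads over 1, and library 4 listed a peak at the same place with 3.54 on 8 reads over 1, short of the p threshold. In the eighth slice, libraries 2, 3 and 4 had 1 enriched peak each, at 3.97, 4.41 and 4.13, which did not overlap one another. The window also held the only 2 of its peaks below input, both in library 4, at -0.19 and -1.04 in the third and seventh slices.

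**Figure D3:**
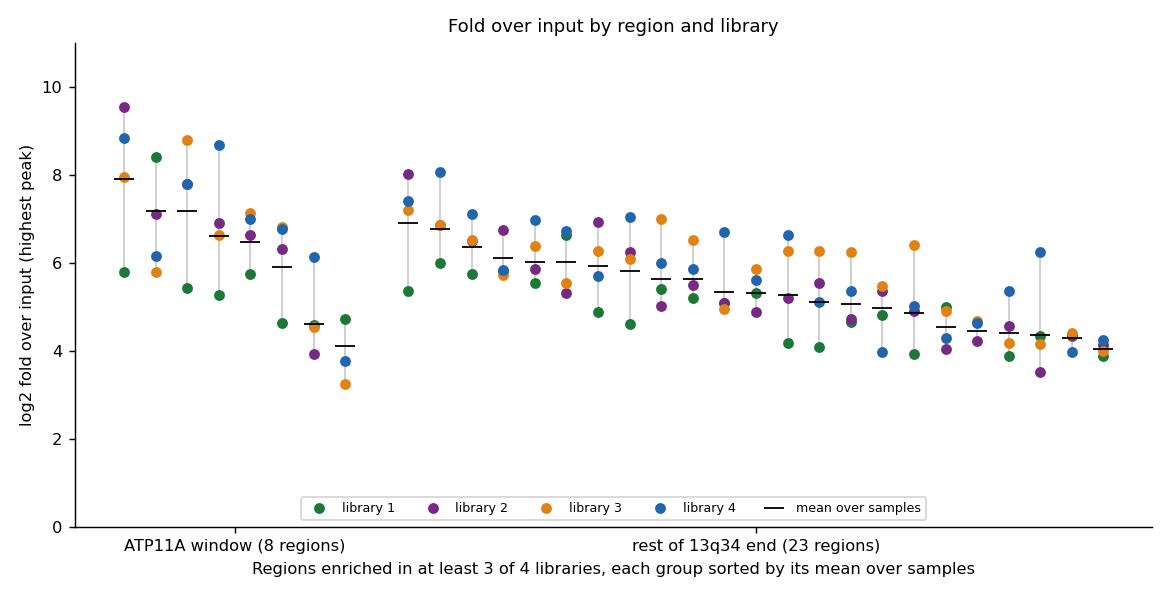
Log2 fold over input (y axis) of the 31 reproducible regions, 8 in the ATP11A window and 23 in the rest of the 13q34 end, each sorted by the mean. A point is the highest enriched peak of a library in the region, and the black dash is the mean over the samples in which the region was enriched. The means run from 4.12 to 7.91 in the window and from 4.04 to 6.89 in the rest.

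Outside the window, enriched peaks came in the same clustered form. The 964 listed peaks fell into 104 groups of neighbours at most 5 kb apart on a strand, and 23 of the groups held the 292 enriched peaks. By position, 74 of 278 listed peaks were enriched from 111000000 on, 73 of 219 from 113000000 on and 145 of 394 from 114000000 on. The stretch from 112000000 on listed 1 peak in all 4 libraries together. From 110000000 on 0 of 22 and from 115000000 on 0 of 50 were enriched, so the signal did not run evenly to the end of the chromosome.

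The 2 regions with the highest folds of the rest lay side by side on the plus strand, 344 kb and more beyond the end of the ATP11A window. At chr13:113886170-113886483 the log2 folds were 5.36, 8.02, 7.19 and 7.41 (6.89 ± 1.38, SD, n = 3). At chr13:113886572-113886794 they were 5.998, 6.85, 6.87 and 8.07 (6.77 ± 0.74). In both, library 1 was the lowest, as in the ATP11A run. The highest peak of the first of them had at least 194 reads over 15 in library 1 and 745 over 3 in library 2. Their means fell within the range of the 5 regions of the ATP11A run.

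On the minus strand, chr13:114536455-114537148 was the widest reproducible region of the 13q34 end, with 694 bases and 26 enriched peaks. It had log2 folds of 5.75, 6.49, 6.51 and 7.10 (6.35 ± 0.54). A run of 4 regions at chr13:113984222-113985527 averaged 5.40 ± 0.37 (SD over regions), and another at chr13:114553559-114554593 averaged 4.99 ± 0.51. A run of 3 at chr13:114882196-114883518 averaged 5.82 ± 0.19, and its last region had 5.54, 5.86, 6.37 and 6.97. These runs were enriched in all 4 libraries in each of their regions. On the plus strand chr13:114278650-114278993 had 6.62, 5.31, 5.54 and 6.71 (6.02 ± 0.66). There libraries 1 and 4 were the higher pair, unlike in the ATP11A run.

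The signal nearest the start of the stretch was a set of single plus-strand regions more than 2 Mb before ATP11A. At chr13:111033106-111033725 the log2 folds were 5.81, 6.73, 5.73 and 5.83 (6.11 ± 0.54), and library 2 stood above the others. At chr13:111126903-111127459 they were 4.17, 5.19, 6.26 and 6.64 (5.27 ± 1.14). The lowest mean of the reproducible regions was that of chr13:111107352-111107553, at 4.04 ± 0.13, with 3.89, 4.13, 3.99 and 4.24. Its spread was among the smallest, although its highest peaks rested on only 14, 67, 15 and 13 immunoprecipitation reads over 3, 4, 2 and 1 input reads.

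**Figure D4:**
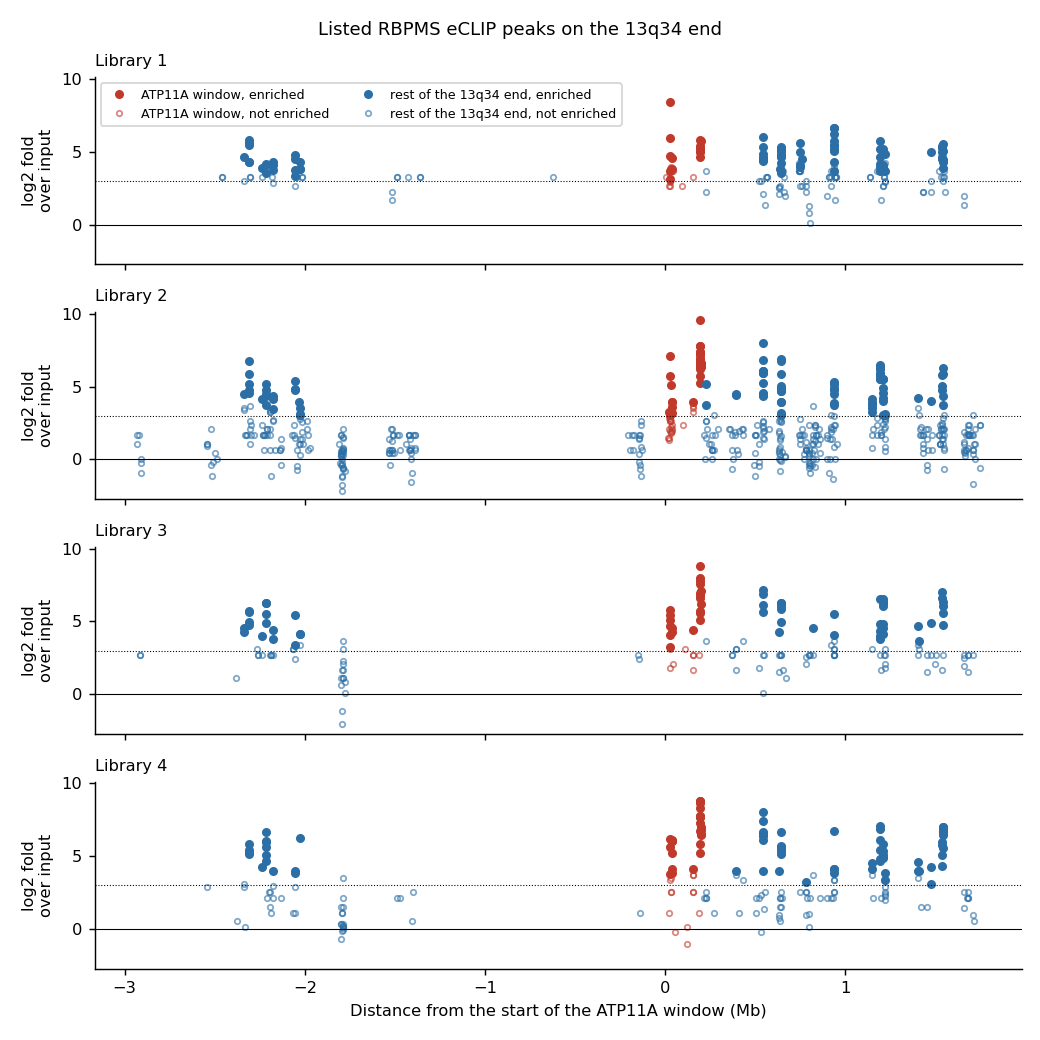
Log2 fold over input (y axis) of every listed peak of the 13q34 end by distance from the start of the ATP11A window (x axis, Mb), with 1 plot per library. Filled points are enriched, open points are not, the dotted line is the log2 threshold of 3 and the solid line is input level. The ATP11A window reaches 8.41, 9.54, 8.79 and 8.82, and the clusters of the rest reach 6.67, 8.02, 7.19 and 8.07 in libraries 1 to 4.

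The libraries largely shared their enriched peaks on this stretch. In the ATP11A window, 68.6% to 90.5% of a library's enriched peaks overlapped one of another library, over the 12 ordered pairs. The lowest share was that of library 2 with library 3 (24 of 35), and the highest that of library 3 with library 4 (19 of 21). Over the whole 13q34 end the shares ran from 63.5% (80 of 126, library 2 with library 3) to 91.9% (68 of 74, library 3 with library 4). A longer list makes it easier to be overlapped, and these shares are not corrected for it.

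The bounds of the stretch and of the window cut through no listed peak. The last peaks before position 110000000 lay 1114 to 1629 kb away, at log2 folds of 1.13 to 2.67, and the first peaks inside were at 1.06 to 3.25, none of them enriched. No peak crossed a bound of the ATP11A window. The first peaks inside it stood at 1.13 to 3.25. The last plus-strand peaks before it were not close to its start. They began at 112722643, 111957812, 111288759 and 111945059 in libraries 1 to 4, at log2 folds of 1.65 to 5.48, with the highest in library 3. The last peaks inside were part of the run, at 5.75, 6.62, 7.12 and 6.81, and the first after the window stood at 3.67, 1.65, 3.67 and 2.13.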

How the data were processed

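Per the labels' protocols, eCLIP and input libraries of HUES6 cells were sequenced as paired ends of 75 nt. The authors deposited 1 peak list per eCLIP library, its peaks differing in position between lists, with a −log10 p and a log2 fold of immunoprecipitation over input for each peak. Per the submitters' processing notes the build is hg19. Aligner, peak caller and the input library behind each list: not given in the sources used here.

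Members, the window and all lists were chosen with earlier results of these data known. Read numbers were worked back from each pair of deposited values, as 2 whole numbers whose ratio and whose p match to a relative tolerance of 0.003 (Fisher's exact test, or chi-square with continuity correction where observed and expected reads all reach 5). On the 13q34 end this gave unique numbers for 90.3%, 85.7%, 80.5% and 68.2% of the peaks above input. Libraries were compared over peaks overlapping by at least 80% of the longer peak, with at least 40 reads together. The regions named are the 10 of highest mean log2 over libraries among those in all 4 libraries, inside and outside the window separately, and the runs; other regions were singled out after their values were seen. In each library the commonest pair of values above input was taken as 3 immunoprecipitation reads over 1 input read. All read numbers and depth ratios rest on this. Recovery and merging were run on simulated data built with the same assumption and p formulas and without touching peaks. That run checks the code and cannot test the assumption. Reads are not independent molecules, so intervals cover counting error only. Python 3.11.15, pandas 2.3.3, numpy 2.4.6 and scipy 1.17.1 were used.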

Additional observations from a re-analysis of the deposited data

Results flagged for a closer look

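With each library counted on its own, 49 quantities were looked at, and 5 held a library whose distance to the nearest other made up more of the whole range than Dixon's 95% limit for 4 values, where about 2.45 would by chance. Library 2 listed 541 peaks on the 13q34 end and 483 outside the ATP11A window, where the next library listed 207 and 171, so that its distance made up 0.903 and 0.915 of the range. The count outside the window is part of the count of the 13q34 end, so these flags are not independent. Over the whole series library 2's list of 118375 peaks was likewise the longest. In the ATP11A window, library 4 had 5.13% of its peaks below input (2 of 39) and the other 3 libraries had 0, a ratio of 1. With 3 values at 0, any other value above 0 gives that ratio. At chr13:111033106-111033725 library 2 stood at a log2 fold of 6.73, above 5.73 to 5.83 in the others (0.901 of the range). At chr13:113984743-113984794 library 4 stood at 6.69, above 4.94 to 5.09 (0.914 of the range).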

How the results depend on the processing

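No paired analysis was possible because input samples, which carry the same numbers as eCLIP samples, have no separate values here, so the replicate block was not run. Reproducible regions of the 13q34 end numbered 50 where 2 of 4 libraries sufficed. The lead of the ATP11A window over the rest in the share of enriched peaks, 29.3 points, was 8.58 ± 7.23 points (SD, n = 3) without the last 10 kb of the window. A setting chosen after seeing the data kept only deep peaks, with at least 20 immunoprecipitation reads or a p at or above the ceiling. The window's lead over the rest was then 4.69 points, with little room for more in libraries 1, 3 and 4. The lead of the 13q34 end over the rest of the genome was 18.9 in place of 27.7 points. The window's part of the enriched 13q34 peaks, 23.9%, was 15.3% when peaks within 5 kb of each other counted as 1 and 11.2% without the last 10 kb. The causes were not tested. Each of these kept its direction. With each library left out, the lead of the window lay between 23.2 and 36.1 points. The named regions moved by less than their SD, but leaving out library 1 or 2 cannot move a mean of 3 samples by more. The mean of chr13:113539437-113539664 went from 7.91 to 8.97 without library 1. With the median in place of the highest peak, 5 of 17 named regions moved by more than their SD. Depth limits the folds of the last 10 kb, where the median bound on input was 2 and 1 reads in libraries 3 and 4.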

Other observations

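The largest group of neighbouring listed peaks without enrichment on the 13q34 end lay on the minus strand at chr13:111539325-111558102. Libraries 2, 3 and 4 listed 58 peaks there and library 1 none. None reached the thresholds and 16 were below input, with a median log2 fold of 0.43 and a range of -2.14 to 3.67. Of the 58 peaks below input outside the ATP11A window, these 16 were the largest group. A further 3 groups of neighbours were listed by all 4 libraries without an enriched peak. The largest of them, chr13:115000372-115017231 on the plus strand, held 18 peaks with a median log2 fold of 1.38.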
